A study of Homo sapiens with 6 samples.

Results

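The genes described here were 74 respiratory chain genes, out of 59653 gene symbols in the count table of the study. They comprised the 13 mRNAs encoded by mitochondrial DNA (MT-ND1 to MT-ND6 with MT-ND4L, MT-CYB, MT-CO1 to MT-CO3, MT-ATP6 and MT-ATP8) and 61 nuclear genes for subunits of complexes I to V. The members were taken by symbol, with earlier results of these data known. The nuclear ones were every numbered NDUFA, NDUFB, NDUFC, NDUFS and NDUFV gene, SDHA to SDHD, 8 UQCR genes and ATP5F1A to ATP5F1E. With them came 7 COX genes (COX4I1, COX5A, COX5B, COX6C, COX7B, COX7C and COX8A). NDUFA4 bears a complex I name but its protein is a subunit of complex IV, and it was counted there. All 74 passed the filter on low counts.

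The respiratory chain passes electrons from NADH (at complex I) and succinate (at complex II) through ubiquinone to complex III, on to cytochrome c and complex IV, and finally to oxygen. Complexes I, III and IV pump protons across the inner mitochondrial membrane, and complex V, the ATP synthase, uses the returning protons to make ATP. All of these complexes except complex II hold subunits from both genomes, so their assembly needs transcripts made in the mitochondrial matrix, as a long precursor cut at its tRNAs, and transcripts made in the nucleus.

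The study used PA1, an established human ovarian teratocarcinoma cell line with the genotype label wildtype, in 6 mRNA libraries. In 3 of them the cells had received control siRNA and in 3 SOX2 siRNA; SOX2 is a transcription factor of pluripotent cells. The design text names 2 siRNAs against SOX2 and does not say whether they were pooled. Cells of both groups were transfected in adherent culture, left there for 24 h, and then kept for 72 h on non-adherent dishes (coated with poly-HEMA, to which cells do not attach) until RNA was taken. No untransfected and no adherent library was analysed here. The labels do not say that replicates came from separate cultures, so p-values measure the spread between these libraries, which may be technical.

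Libraries held 25152313 to 32753184 counts, and levels are given as CPM, counts divided by the scaled size of the library. SOX2 itself was at 245, 265 and 256 CPM in control replicates 1 to 3 and at 51.8, 54.9 and 50.6 CPM with SOX2 siRNA, so 20.5% remained. Genes of the PA1 list (POU5F1, LIN28A and others) summed to 2777 to 2838 CPM in control libraries and 2771 to 2836 CPM with SOX2 siRNA, and of its 9 tested genes 4 were called higher and 1 lower. Among markers of other cell types, the summed level of the 6 fibroblast genes was 402 to 453 CPM in control libraries and 517 to 559 CPM with SOX2 siRNA, mostly COL1A1 and THY1 with DCN near 0, and 3 of 5 tested were called higher. For the 5 epithelial genes it was 348 to 391 and 479 to 514 CPM, mostly KRT8 and KRT18, which were called higher, as MUC1 was called lower. The 5 leukocyte genes reached at most 18.2 CPM, mostly LYZ, with MS4A1 at 0 in all libraries; the 5 muscle genes reached at most 7.26 CPM and the 3 hepatocyte genes at most 3.75 CPM. Of all genes tested 28.2% were called, 14.8% higher and 13.4% lower. The part of these markers in the results below was not tested.

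The comparison asks whether transcripts of the respiratory chain differed in level between cells with SOX2 siRNA and control cells, and whether the 2 genomes moved alike. Of the 74 members, 11 passed the threshold of an adjusted p under 0.05 in edgeR's quasi-likelihood test (Benjamini-Hochberg over all genes tested), 3 higher and 8 lower with SOX2 siRNA. That is 14.9% of the members, beside 28.2% of all 17592 genes tested and 36.3% of the 9447 genes at or above the level of the lowest member. Across all genes tested, 14.8% were called higher and 13.4% lower, which is 2599 and 2365 genes; upper-quartile scaling turned this balance to 2311 higher and 2734 lower. The members that rose were NDUFA4 and COX6C of complex IV and ATP5F1E of complex V. The members that fell were NDUFS1, NDUFS4, NDUFS6, NDUFB9, MT-ND5 and MT-ND6 of complex I and COX5A and MT-CO2 of complex IV.

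Changes were small in all 11. The largest fold change among them was 1.18, in NDUFS4, and none of the 74 estimates lay beyond 0.25 on the log2 scale, a bound passed by 31.4% of all genes tested and 16.6% of the 9447 more highly expressed ones. The standard deviation of the log2 fold changes was 0.10 over the members and 0.26 over those 9447 genes. For 69 of the 74 members the 95% interval of the change stayed within 1.25-fold in either direction, and for all 74 within 1.5-fold. The 5 whose interval passed 1.25-fold were MT-ATP8, MT-ND4L, MT-ND6, NDUFA9 and NDUFS4. In such bulk libraries, fewer cells of a kind and less RNA per cell cannot be told apart. Estimates were as often above 0 (37 members) as below it (37 members), and the plot of all 74 changes by complex shows them on both sides of 0 in complexes I, II, III, IV and V.

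**Figure D1:**
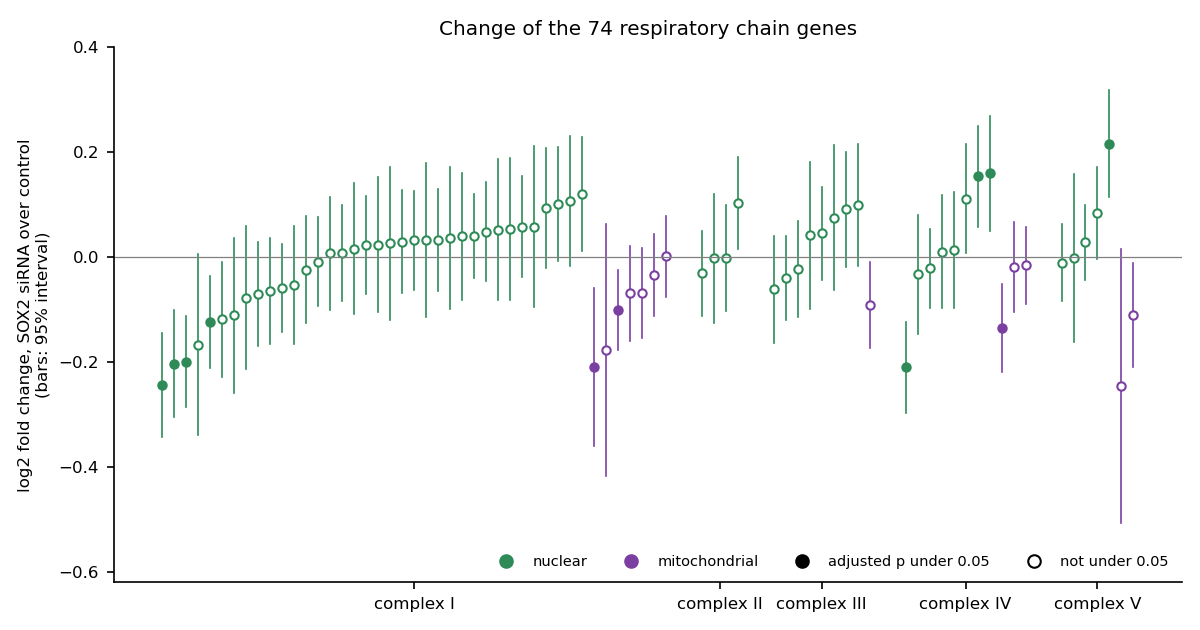
Log2 fold change (y axis, SOX2 siRNA over control) with its 95% interval for each of the 74 members, grouped along the x axis by complex; green points are nuclear and purple points mitochondrial genes, and filled points have an adjusted p under 0.05. The 11 filled points lie between -0.24 and 0.22, and 12 of the 13 mitochondrial points lie below 0.

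Mitochondrial mRNAs made up a large part of each library. Their 13 transcripts together took 5.29%, 5.65% and 5.19% of all counts in control replicates 1 to 3 and 5.12%, 5.17% and 5.19% with SOX2 siRNA. The group means were 5.38% ± 0.244 (SD, n = 3) and 5.16% ± 0.0334 (SD, n = 3). Control replicate 2 had the highest share, and SOX2 siRNA replicate 3 was at the level of control replicate 3, so the ranges of the groups met. The difference was -0.06 on the log2 scale, beside a spread between replicates of 0.046. Without control replicate 2 it was -0.02.

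The 61 nuclear members together took a far smaller share. Their sum was 0.524%, 0.494% and 0.509% of counts in the control libraries and 0.50%, 0.514% and 0.521% with SOX2 siRNA, and the groups overlapped. The ratio of mitochondrial to nuclear counts was 10.1, 11.4 and 10.2 in the control libraries. With SOX2 siRNA it was 10.3, 10.1 and 9.96. The group means of the log2 ratio thus differed by -0.06, less than the spread of 0.073 between replicates. Control replicate 2 alone lay above the other 5 libraries. Without that library the difference was -0.0065.

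**Figure D2:**
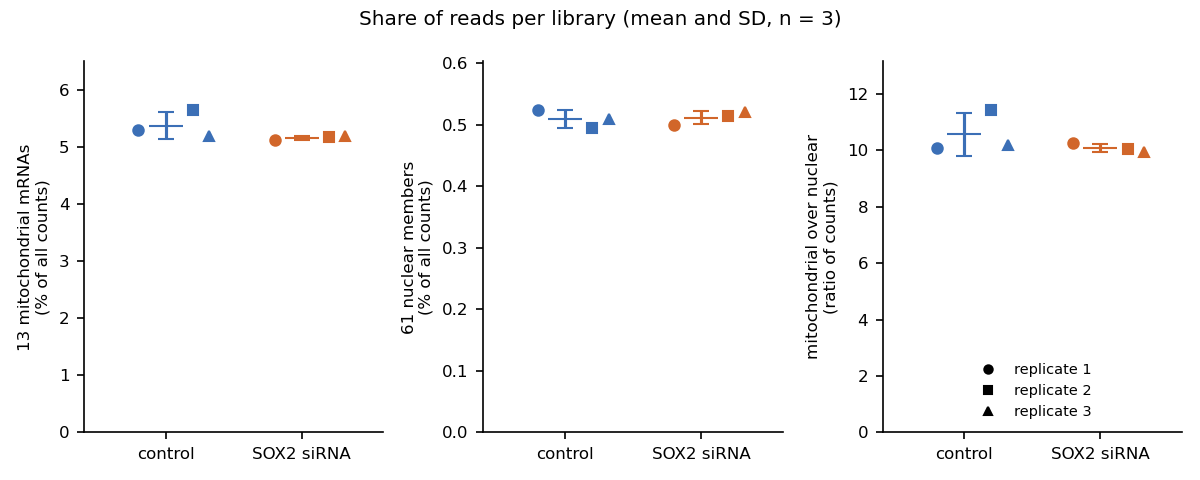
Share of all counts (y axis, %) taken by the 13 mitochondrial mRNAs (left) and the 61 nuclear members (middle), and the ratio between them (right), in each control and SOX2 siRNA library; symbols mark the replicate number, and lines with bars give the mean and SD (n = 3). Control replicate 2 stands above the other libraries in the left and right panels, at 5.65% and a ratio of 11.4.

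Levels differed far more between members than between the groups. Per kilobase of coding sequence, the scale used to compare genes, control means of the mitochondrial mRNAs ran from 491 CPM per kb for MT-ND6 to 8207 CPM per kb for MT-CO3, with a median of 4058. Nuclear members ran from 25.7 CPM per kb for NDUFS7 to 579 CPM per kb for NDUFA4, with a median of 125. Every mitochondrial mRNA except MT-ND6 was above every nuclear member on this scale. Coding length leaves out untranslated regions, which nuclear mRNAs have and mitochondrial mRNAs nearly lack.

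MT-CO3 and MT-CO1 of complex IV led the order. MT-CO3 (8207 ± 454 CPM per kb, SD, n = 3 control libraries), MT-CO1 (7721 ± 258) and MT-ATP6 (7061 ± 505) overlapped with their neighbours in the order, as did MT-CO2 (5442 ± 285) with MT-ND1 (5411 ± 209). MT-ND4 (6232 ± 294) lay between these groups without overlap. MT-ATP8, MT-ND2, MT-CYB and MT-ND4L followed at 4058, 3415, 3054 and 2616 CPM per kb, each clear of the next. MT-ND5 (1949 ± 87.0) and MT-ND3 (1765 ± 121) overlapped, and MT-ND6 (491 ± 39.1) was last. Among the 60 pairs of neighbours in the nuclear order, 45 overlapped. This order depends on the coding length, which was 246 of 2130 bases of the annotated transcript for NDUFA4 and 156 of 1878 for ATP5F1E. For ATP5F1B it was 1590 of 1839. Without division by length, ATP5F1A had the highest nuclear control mean, at 636 CPM, beside 142 CPM for NDUFA4. Per kb of coding sequence, the small subunits NDUFA4 and COX7C of complex IV (both 579 CPM per kb) and ATP5F1E of complex V (549) were highest. Next came UQCRH (440), the acidic hinge protein of complex III. NDUFS5 was the highest nuclear gene of complex I at 303 CPM per kb. At the low end stood SDHA (39.4) and ATP5F1D (37.7), and NDUFS7, a core subunit of complex I that carries an iron-sulfur cluster, was last.

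**Figure D3:**
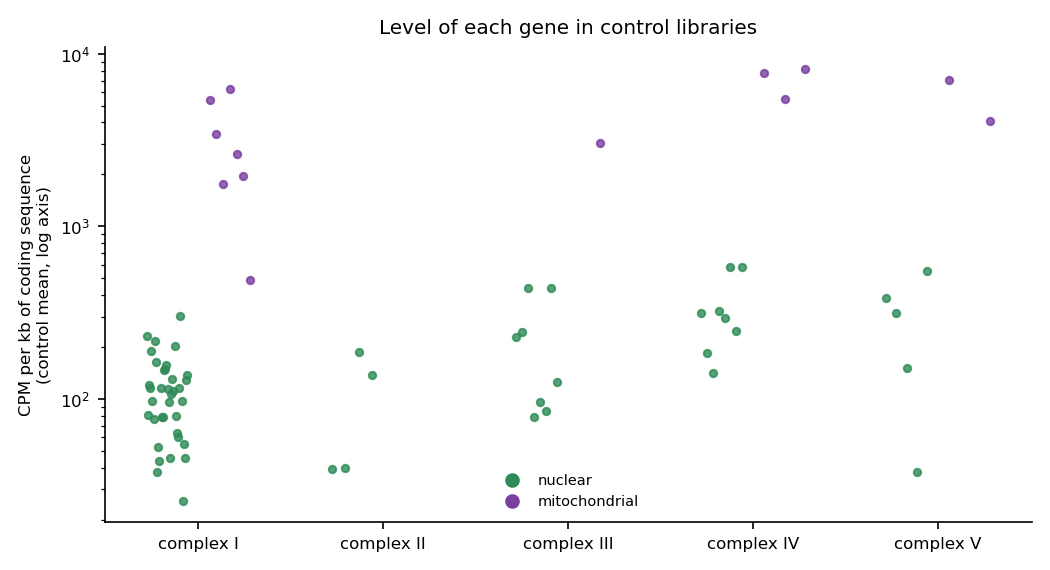
Control mean level (y axis, CPM per kb of coding sequence, log scale) of the 74 members by complex, nuclear genes in green and mitochondrial genes in purple. Mitochondrial mRNAs lie between 491 and 8207, nuclear members between 25.7 and 579.

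Of the mitochondrial mRNAs, 3 of 13 fell (23.1%, beside 13.4% of all genes called lower) and 0 rose. Among the 9447 more highly expressed genes, 36.3% were called in either direction. At an unadjusted p under 0.05 edgeR had 5 lower and 0 higher, and DESeq2 and limma-voom each called 4 lower and 0 higher. The estimate was below 0 for 12 of the 13, MT-ND1 being at 0.00, and the median log2 fold change was -0.09 beside -0.0008 for all genes tested. In 6 of the 13 (MT-CO2, MT-ND5, MT-ND6, MT-CYB, MT-ATP6 and MT-ATP8) all control libraries lay above all SOX2 siRNA libraries, whereas 20.3% of all genes tested were separated in that direction.

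These counts leaned on control replicate 2, which held the highest of the 6 values for all 13 mitochondrial mRNAs; over all genes tested it was highest in 19.8%. Without it 9 of the 13 estimates were below 0, the median was -0.05, and 1 of the 13 was called (MT-ATP8, with none of the 3 named above). Without SOX2 siRNA replicate 1, and likewise without replicate 3, MT-CO2 alone was called. Control replicate 2 was also the shallowest of the 6 libraries, at 25152313 counts, and the part of depth in these values was not tested.

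MT-CO2 encodes the subunit of complex IV that takes electrons from cytochrome c. It was at 3660, 3941 and 3567 CPM in the control libraries and 3293, 3495 and 3377 CPM with SOX2 siRNA. All control values exceeded all SOX2 siRNA values, the closest being 3567 and 3495. Its log2 fold change was -0.14 (SE 0.039, adjusted p = 0.016, edgeR), so it fell by 8.97%, and the adjusted p was 0.062 without control replicate 2. The 2 other mitochondrial subunits of the enzyme did not pass. MT-CO1, which holds the site of oxygen reduction, was at 11911, 12300 and 11505 CPM in the control libraries and 11630, 11880 and 11813 CPM with SOX2 siRNA. These ranges overlapped throughout, with a log2 fold change of -0.02 (95% interval -0.09 to 0.06). MT-CO3 gave -0.02 (-0.10 to 0.07).

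MT-ND5 is a proton-pumping membrane subunit of complex I. Its levels were 3375, 3690 and 3529 CPM in the control libraries and 3298, 3259 and 3319 CPM with SOX2 siRNA. The groups were separate but close, with 3375 against 3319 CPM at the border. The log2 fold change was -0.10 (SE 0.036, adjusted p = 0.046, edgeR), and the adjusted p ran up to 0.165 when a library was left out; the call was lost without control replicate 2 or 3 or any one of the 3 SOX2 siRNA libraries. It was also lost with no filter beyond 1 count (adjusted p = 0.060) and with the replicate block and GC and length offsets (0.063).

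MT-ND6, another membrane subunit of complex I, is the one mitochondrial protein gene read from the light strand, and its mRNA is known to carry little or no poly(A) tail. It was at 266, 273 and 234 CPM in the control libraries and 228, 233 and 207 CPM with SOX2 siRNA, and control replicate 3 (234) was barely above SOX2 siRNA replicate 2 (233). Its log2 fold change was -0.21 (SE 0.066, adjusted p = 0.044, edgeR). The call was lost without control replicate 1 (adjusted p = 0.168) or 2 (0.148) and without SOX2 siRNA replicate 1 (0.124) or 3 (0.068). It was also lost with upper-quartile scaling (0.063), total counts alone (0.081) and offsets for GC content and length (0.187). The count ratio of MT-ND6 to its neighbour MT-ND5 was 0.0789, 0.0738 and 0.0664 in the control libraries and 0.0692, 0.0715 and 0.0622 with SOX2 siRNA, so the groups overlapped. Whether the counting used strand is not given in the sources used here.

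The labelled kit selects polyadenylated RNA. Tails of the mitochondrial mRNAs were not measured, and the part of capture in these values was not tested. In the reference annotation (GENCODE 29, GRCh38), the entries of the 13 genes cover the coding sequence alone. They do not show where each mRNA ends. Of the 13 entries, 6 stop after T or TA, and their stop codons become complete only when the tail is added. Their last bases are shown 5′ to 3′, with the incomplete codon in capitals. Next to them are MT-CO2, whose entry ends in a complete TAG, and MT-ND6, whose entry ends in AGG.
MT-ND1: ccccctcaaaccTA
MT-ND2: ctaataatcttaT
MT-ND3: gactgaaccgaaT
MT-ND4: gggttttcctctT
MT-CO3: tgatgagggtctT
MT-CYB: ctcaaatgggccT
MT-CO2: tttaccctaTAG
MT-ND6: cgggggaatAGG
The coding entries of the 3 mRNAs that fell all end in complete codons. That was seen after their values were known and was not tested. The 6 with incomplete codons had log2 fold changes of 0.00 (MT-ND1), -0.07 (MT-ND2), -0.07 (MT-ND3), -0.03 (MT-ND4), -0.02 (MT-CO3) and -0.09 (MT-CYB). The last of these, for the cytochrome b of complex III, had separate groups (3407, 3684 and 3361 CPM against 3181, 3268 and 3357) and an adjusted p of 0.088 (edgeR); it passed with upper-quartile scaling (0.028) and with total counts alone (0.048).

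MT-ATP8, with the lowest estimate of the mitochondrial set, and MT-ND4L, with the lowest after MT-ND6, are short genes that share sequence with a longer one. MT-ATP8 and MT-ATP6 encode membrane subunits of the ATP synthase and lie on a single mRNA, with the last 46 bases of MT-ATP8 inside the start of MT-ATP6 (chrM:8527-8572, plus strand, GRCh38). MT-ND4L and MT-ND4 share 7 bases (chrM:10760-10766) in the same way. A read within the shared bases, in capitals here, belongs to both genes, so how the counts were divided between the genes of a pair is uncertain. MT-ATP8 is shown whole and MT-ND4L by its last 100 bases.
MT-ATP8: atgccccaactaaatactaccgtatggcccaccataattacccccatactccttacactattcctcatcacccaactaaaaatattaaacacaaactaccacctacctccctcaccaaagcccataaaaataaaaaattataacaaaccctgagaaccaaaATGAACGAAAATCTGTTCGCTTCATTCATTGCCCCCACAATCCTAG
MT-ND4L: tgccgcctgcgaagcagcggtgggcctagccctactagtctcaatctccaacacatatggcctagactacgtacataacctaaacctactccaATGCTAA

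MT-ATP8 was at 792, 966 and 762 CPM in the control libraries and 731, 701 and 693 CPM with SOX2 siRNA. The groups did not overlap, but control replicate 2 lay far above the other control libraries. The log2 fold change was -0.25 (SE 0.10, 95% interval -0.51 to 0.02, adjusted p = 0.152, edgeR), and without control replicate 2 it was -0.13 with an adjusted p of 0.018. MT-ATP6 was at 4592, 5205 and 4628 CPM in the control libraries and 4296, 4502 and 4564 CPM with SOX2 siRNA, again with separate groups. Its log2 fold change was -0.11 (SE 0.046, adjusted p = 0.094, edgeR). The count ratio of MT-ATP8 to MT-ATP6, 2 genes on 1 mRNA, was 0.172, 0.186 and 0.165 in the control libraries and 0.170, 0.156 and 0.152 with SOX2 siRNA. The ratio overlapped between the groups.

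MT-ND4L, a small membrane subunit of complex I, was at 777, 871 and 682 CPM in the control libraries and 710, 676 and 673 CPM with SOX2 siRNA. The lowest control value was below the highest SOX2 siRNA value. The log2 fold change was -0.18 (SE 0.094, adjusted p = 0.245, edgeR), and the adjusted p was 0.0016 without control replicate 3, the lowest of the controls. Its partner MT-ND4, at 8380, 9053 and 8328 CPM against 8443, 8294 and 8411, had a log2 fold change of -0.03 (95% interval -0.11 to 0.04).

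The mitochondrial ribosomal RNAs and the nuclear copies of mitochondrial genes gave a background for these values. MT-RNR1 (log2 fold change -0.01, SE 0.092) and MT-RNR2 (0.04, SE 0.041) were not called, nor were the 2 other mitochondrial RNA genes that passed the filter: edgeR called 0 of 4, also at an unadjusted p under 0.05, and DESeq2 and limma-voom called 0. Counts of the 13 mRNAs over those of the ribosomal RNAs stood at 4.10, 3.96 and 3.822 in the control libraries. With SOX2 siRNA they stood at 3.817, 3.67 and 3.67, so the lowest control value was barely above the highest SOX2 siRNA value. Control replicate 1, not replicate 2, was the highest here. Of 395 nuclear pseudogene copies of mitochondrial genes, 7 passed the filter and 0 were called by edgeR, at an unadjusted p under 0.05, by DESeq2 or by limma-voom. The most abundant, MTATP6P1, a near-identical copy of a stretch of mitochondrial DNA, held 16968 to 20196 unscaled counts in control libraries and 18414 to 20419 with SOX2 siRNA. All 395 copies summed to 799 to 892 CPM in control libraries and 790 to 836 CPM with SOX2 siRNA. Reads of a mitochondrial gene and of such a copy can be exchanged. This leaves MT-ATP6, and any other mitochondrial mRNA with an expressed copy, uncertain to that extent.

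**Figure D4:**
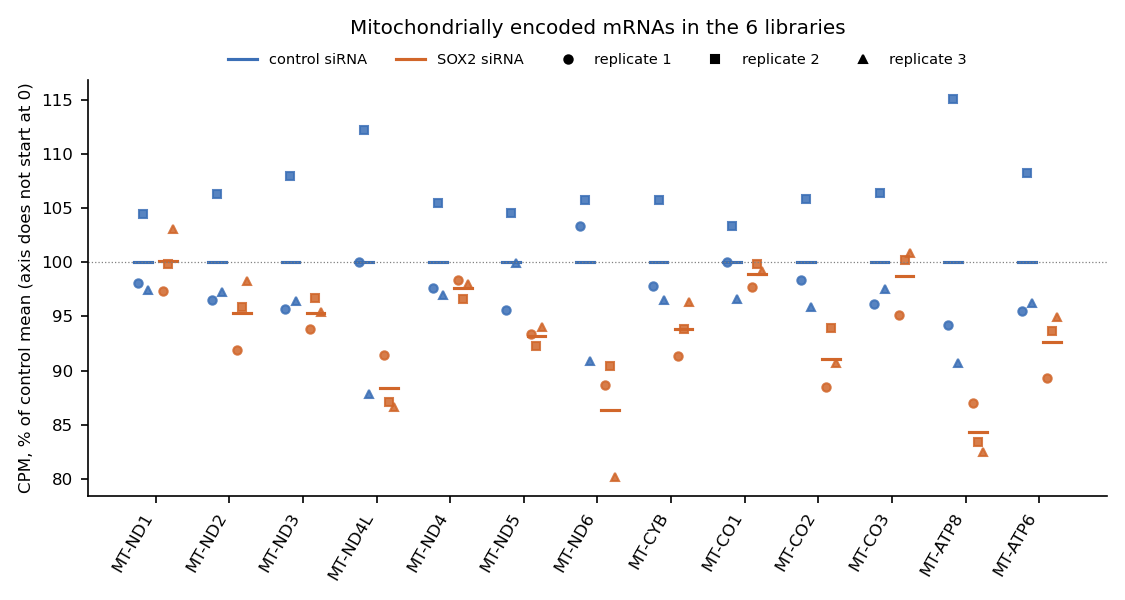
CPM of the 13 mitochondrial mRNAs in each library as a percentage of the control mean (y axis, not starting at 0); blue is control and orange SOX2 siRNA, symbols mark the replicate number, and lines give group means (n = 3). Control replicate 2, the blue square, is the highest of the 6 values for every gene.

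Of the nuclear members, 8 of 61 passed (13.1%, beside 28.2% of all genes tested), 3 higher and 5 lower, with a median log2 fold change of 0.02. The groups did not overlap in 11 of the 61, 7 lower and 4 higher, beside 41.8% of all genes tested. The sign of the nuclear median was not stable: it was -0.01 without control replicate 2, -0.02 without SOX2 siRNA replicate 3 and -0.0034 with offsets for GC content and length. With those offsets 11 were called, 7 higher and 4 lower, against 3 higher and 5 lower without them. Without control replicate 2, 5 were called (ATP5F1E, COX5A, NDUFB9, NDUFS4 and NDUFS6).

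Complex I, which takes electrons from NADH, had 4 of 36 nuclear members called, all lower, and 0 higher. At an unadjusted p under 0.05 edgeR had 5 lower and 1 higher (NDUFA6), DESeq2 called 4 lower and 0 higher, and limma-voom 3 lower and 0 higher. The share called was 11.1%, beside 28.2% of all genes tested in either direction and 13.4% lower, so it was near or below the background. The median of the 36 was 0.02, and the uncalled NDUFA9 (-0.17) had a lower estimate than NDUFS1. By role, 1 of the 7 nuclear core subunits, which carry the redox centres, fell (NDUFS1; 14.3%), as did 3 of the 29 supernumerary subunits, which surround the core (NDUFS4, NDUFS6 and NDUFB9; 10.3%), both near the 13.4% of all genes called lower.

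NDUFS4 (chromosome 5, 53560633 to 53683340, plus strand, GRCh38) is a supernumerary subunit of the NADH-oxidising arm, and its loss is a cause of Leigh syndrome. It was at 60.4, 62.4 and 60.4 CPM in the control libraries and 48.4, 52.7 and 53.5 CPM with SOX2 siRNA. All 3 control values lay well above all SOX2 siRNA values. The log2 fold change was -0.24 (SE 0.047, adjusted p = 7.5e-04, edgeR), so it fell by 15.6%, the most of the called members, and the adjusted p stayed at or under 0.0063 in all 18 alternative fits.

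NDUFS6 (chromosome 5, 1801400 to 1816605, plus strand), a small zinc-binding subunit of the same arm, was at 37.5, 36.6 and 35.9 CPM in the control libraries and 32, 31.5 and 32.1 CPM with SOX2 siRNA. The replicates lay close together and the groups were clearly separate. Its log2 fold change was -0.20 (SE 0.048, adjusted p = 0.0040, edgeR), so it fell by 13.2%. NDUFB9 is a supernumerary subunit of the membrane arm. Its values were 71.9, 70.0 and 69.9 CPM in the control libraries and 60.2, 61.6 and 62.7 CPM with SOX2 siRNA. It too showed a gap between the groups larger than the range within either, with a log2 fold change of -0.20 (SE 0.041, adjusted p = 0.0013, edgeR). Its exons overlap those of MTSS1 and TATDN1 on the opposite strand, so without strand its count is uncertain.

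NDUFS1, the largest core subunit, which holds iron-sulfur clusters, was at 174, 181 and 171 CPM in the control libraries and 151, 166 and 165 CPM with SOX2 siRNA. SOX2 siRNA replicate 1 was the low one, and the other 2 lay only a little below the controls. The log2 fold change was -0.12 (SE 0.042, adjusted p = 0.033, edgeR). The call was lost without control replicate 1 (adjusted p = 0.055), without control replicate 2 (0.126) and without SOX2 siRNA replicate 1 (0.119). It was also lost with limma-voom (0.052), without edgeR's robust option (0.051) and with GC and length offsets (0.125, or 0.162 with the replicate block). NDUFS1 also overlaps EEF1B2 and another gene on the opposite strand and a pseudogene on its own.

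The other 32 nuclear genes of complex I did not pass, with estimates from -0.17 (NDUFA9) to 0.12 (NDUFA6). NDUFB1 and NDUFV3 had all control values above all SOX2 siRNA values, with log2 fold changes of -0.07 each. NDUFS5, the highest per coding length, had a log2 fold change of 0.02 (SE 0.044), and NDUFS7, the lowest, 0.03 (SE 0.070).

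Complex II, succinate dehydrogenase, is the one complex of nuclear subunits alone. None of its 4 genes was called by edgeR, DESeq2 or limma-voom (0 of 4 in each), and at an unadjusted p under 0.05 edgeR had 1, SDHA. Of all genes tested edgeR called 28.2%. SDHA, the flavoprotein that oxidises succinate, was at 82.0, 75.5 and 78.4 CPM in the control libraries and 84.2, 85.5 and 84.0 CPM with SOX2 siRNA. The groups did not overlap. The log2 fold change was 0.10 (SE 0.041, adjusted p = 0.074, edgeR), and it passed without control replicate 1 (0.14, adjusted p = 0.027). SDHC, a membrane anchor, had a log2 fold change of -0.03 (SE 0.038), and SDHB and SDHD both 0.00.

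In complex III, the cytochrome bc1 complex, 0 of 8 nuclear members were called by edgeR, DESeq2 or limma-voom. At an unadjusted p under 0.05 edgeR also had 0. The share called over all genes tested was 28.2% in edgeR. All 8 intervals stayed within 1.25-fold, so a larger change of these transcripts lies outside the 95% intervals. Estimates ran from -0.06 (UQCRB) to 0.10 (UQCR11). UQCR11, a small accessory subunit, was at 45.6, 40.7 and 39.8 CPM in the control libraries and 44.1, 44.3 and 47.0 CPM with SOX2 siRNA, with control replicate 1 among the SOX2 siRNA values. It passed without that library (0.17, adjusted p = 0.029, edgeR). UQCR10 (0.09, SE 0.052), UQCRH (0.04, SE 0.063) and UQCRC1 (0.04, SE 0.042) had overlapping groups.

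In complex IV, cytochrome c oxidase, 3 of 8 nuclear members were called, 2 higher and 1 lower. That is 37.5%, close to the 36.3% of genes at or above the level of the lowest member. COX5A (chromosome 15, 74919791 to 74938168, minus strand), a structural subunit on the matrix side, was at 87.1, 81.0 and 83.9 CPM in the control libraries and 71.7, 73.2 and 73.2 CPM with SOX2 siRNA. The groups were separate by more than the range within either. COX5A fell by 0.21 on the log2 scale (SE 0.041, adjusted p = 8.7e-04, edgeR), that is by 13.5%, and stayed at or under an adjusted p of 0.0055 in all 18 alternative fits.

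NDUFA4, a small subunit bound at the surface of complex IV, was at 150, 133 and 144 CPM in the control libraries and 152, 158 and 165 CPM with SOX2 siRNA. The groups met closely, at 150 and 152 CPM. Its log2 fold change was 0.15 (SE 0.045, adjusted p = 0.017, edgeR), and the adjusted p was 0.091 without control replicate 2, 0.057 without SOX2 siRNA replicate 2 and 0.076 without SOX2 siRNA replicate 3. COX6C, another small membrane subunit, was at 75.2, 72.5 and 72.6 CPM in the control libraries and 77.6, 78.9 and 89.6 CPM with SOX2 siRNA. SOX2 siRNA replicate 3 was the high value. COX6C had a log2 fold change of 0.16 (SE 0.051, adjusted p = 0.029, edgeR), 0.09 without that library (adjusted p = 0.184). Its call was also lost without control replicate 2 (0.104) or 3 (0.094) and with limma-voom (0.056).

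The remaining 5 nuclear genes of complex IV had estimates from -0.03 (COX8A) to 0.11 (COX7C), and COX5B, which binds zinc, was at 0.01 (SE 0.051). COX5A and MT-CO2 thus fell while NDUFA4 and COX6C rose, and MT-CO1, MT-CO3 and COX4I1 (-0.02, adjusted p = 0.713, edgeR) did not pass.

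In complex V, 1 of the 5 nuclear members was called (20%, beside 28.2% of all genes tested). ATP5F1E (chromosome 20, 59025467 to 59032382, minus strand), the epsilon subunit of the central stalk, was at 87.3, 81.4 and 88.5 CPM in the control libraries and 93.6, 99.7 and 106 CPM with SOX2 siRNA. The groups did not overlap. ATP5F1E rose by a log2 fold change of 0.22 (SE 0.048, adjusted p = 0.0025, edgeR), or 16.2%, and was called in all 18 alternative fits. Its annotated exons overlap TUBB1 on the opposite strand. Its partners in the central stalk, ATP5F1C (gamma; 0.08, SE 0.041, adjusted p = 0.149, edgeR) and ATP5F1D (delta; 0.00, SE 0.076), did not pass. The alpha and beta subunits of the catalytic head, ATP5F1A and ATP5F1B, gave 0.03 and -0.01.

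**Figure D5:**
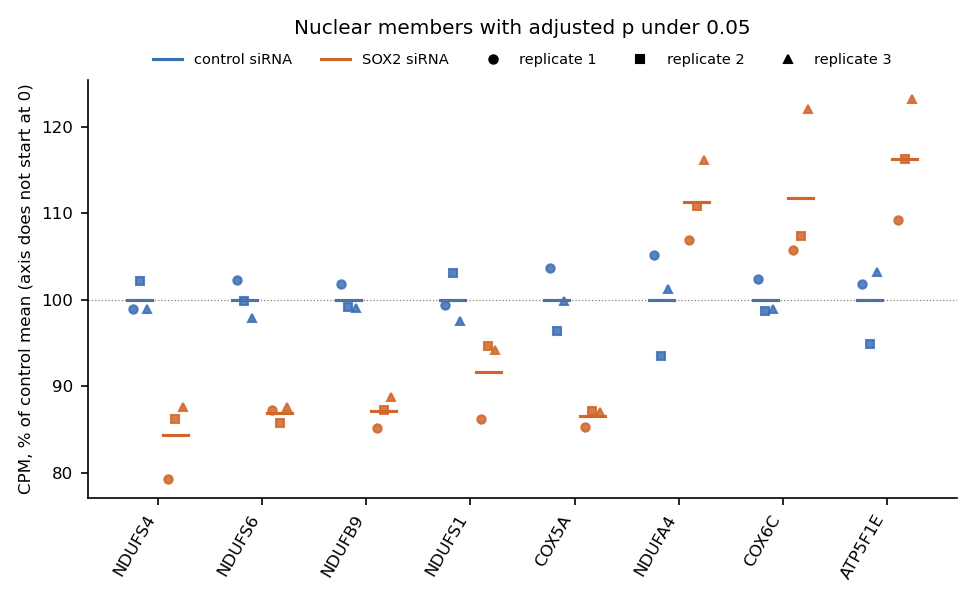
CPM of the 8 called nuclear members in each library as a percentage of the control mean (y axis, not starting at 0), with control in blue, SOX2 siRNA in orange, symbols for the replicate number and lines for group means (n = 3). The 5 genes on the left lie lower with SOX2 siRNA and the 3 on the right higher, with no overlap of the groups; NDUFA4 has the narrowest gap, 150 against 152 CPM.

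The nuclear members moved together between libraries of a group. SOX2 siRNA replicate 3 was above replicate 1 in 52 of the 61, beside 51.4% of all genes tested, and it was the highest of its group in 41. Replicate 1 was the lowest of its group in 46 of the 61, beside 38.7% of all genes tested. In the control group, replicate 2 was the lowest in 43 and replicate 1 the highest in 41. So the library with the highest mitochondrial mRNAs of the controls was mostly the lowest in nuclear members. The 14 genes of a hypoxia list (PDK1, BNIP3, NDRG1 and others, induced at low oxygen) varied in the same libraries. Their median deviation from the mean over libraries was -0.09, -0.02 and 0.19 (log2) in control replicates 1 to 3 and 0.41, -0.02 and -0.58 with SOX2 siRNA. Within the SOX2 siRNA group, replicate 1 was thus the highest in hypoxia genes and the lowest in nuclear members, and replicate 3 the reverse. The control group showed this order only in part. Its replicate 1 was the lowest in hypoxia genes and the highest in nuclear members. But replicate 3 was the highest in hypoxia genes, whereas replicate 2 was the lowest in nuclear members. The part of one in the other was not tested.

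Of that hypoxia list 1 of 14 was called, beside 28.2% of all genes tested. The called gene was ADM (adrenomedullin, a secreted peptide), lower at -0.86 (SE 0.10, adjusted p = 4.5e-05, edgeR). By edgeR 0 were higher, also at an unadjusted p under 0.05, and by DESeq2 0. Limma-voom called 2 higher (SLC2A1 and BNIP3L). ADM was at 18.6, 18.3 and 19.4 CPM in the control libraries and 12.5, 9.39 and 9.06 CPM with SOX2 siRNA. NDUFA4L2, the isoform of NDUFA4 made at low oxygen, was close to its detection limit at 0.242, 0.319 and 0.173 CPM against 0.596, 0.649 and 0.401. Its groups did not overlap (log2 fold change 1.17, SE 0.37, adjusted p = 0.026, edgeR), and the call was lost with DESeq2 (adjusted p = 0.170), without control replicate 1 or 3 and without SOX2 siRNA replicate 1 or 2. The other isoforms restricted to certain tissues were near or at 0: COX4I2 reached at most 0.207 CPM, and COX6A2, COX7A1 and COX7B2 had no counts.

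Promoters of the nuclear members were compared by sequence, since NRF1, GABPA and YY1 are transcription factors known to bind many respiratory chain promoters. RefSeq promoter windows (GRCh38.p14, 250 bases before to 50 after the start) were found for 50 of the 61. The letters GCGC, any base and TGCGC in a row (NRF1), searched on both strands as were all the following, occurred in 13 of the 50 (26.0%) and in 6.98% of the windows of 27305 genes. CCGGAAGT (GABPA and other ETS factors) occurred in 9 (18.0%, beside 4.95% of all) and AAGATGGCG (YY1) in 8 (16%, beside 2.14%). CCAAT was found in 14 (28.0%, beside 39.7%) and TATAAA in 5 (10%, beside 14.0%). None of these motifs contains another. A match is a description of letters and not of a bound site.

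Of the 8 called nuclear members 5 had a window, and 3 of these held a motif; COX5A and NDUFS6 held none, and NDUFA4, COX6C and NDUFB9 had no window. Of the 13 with the NRF1 letters 0 were called, beside 5 of the 37 without them. With the ETS letters it was 1 of 9 (NDUFS1), beside 4 of 41 without. For the YY1 letters it was 1 of 8 (NDUFS4), beside 4 of 42. In the NDUFS4 window these letters begin 21 bases after the start, within the transcribed part. For CCAAT it was 1 of 14 (ATP5F1E), beside 4 of 36, and for TATAAA 0 of 5, beside 5 of 45. Of all 61 nuclear members 13.1% were called, and of all genes tested 28.2%. These sets are small, and differences between them were not tested. Median log2 fold changes with and without the NRF1 letters were 0.03 and 0.02. Shown here, 5′ to 3′ in the direction of transcription with matches in capitals, are the windows of the most lowered nuclear member (NDUFS4, chr5:53560389-53560688, plus strand, YY1 letters), the most raised (ATP5F1E, chr20:59032286-59032585, minus strand, 4 matches of CCAAT or its reverse) and SDHA (chr5:218070-218369, plus strand), which holds 4 matches for NRF1.
NDUFS4: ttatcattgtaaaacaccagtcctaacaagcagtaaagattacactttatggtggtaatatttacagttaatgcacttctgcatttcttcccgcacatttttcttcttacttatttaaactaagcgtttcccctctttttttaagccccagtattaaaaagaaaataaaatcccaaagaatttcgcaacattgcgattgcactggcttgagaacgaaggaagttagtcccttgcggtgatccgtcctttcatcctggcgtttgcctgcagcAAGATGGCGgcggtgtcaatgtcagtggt
ATP5F1E: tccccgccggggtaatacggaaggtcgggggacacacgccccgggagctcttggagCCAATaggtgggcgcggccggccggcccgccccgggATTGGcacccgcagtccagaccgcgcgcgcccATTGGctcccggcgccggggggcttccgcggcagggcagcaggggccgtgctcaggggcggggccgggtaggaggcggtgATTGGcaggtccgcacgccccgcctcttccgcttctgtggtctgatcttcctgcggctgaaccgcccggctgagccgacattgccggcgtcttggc
SDHA: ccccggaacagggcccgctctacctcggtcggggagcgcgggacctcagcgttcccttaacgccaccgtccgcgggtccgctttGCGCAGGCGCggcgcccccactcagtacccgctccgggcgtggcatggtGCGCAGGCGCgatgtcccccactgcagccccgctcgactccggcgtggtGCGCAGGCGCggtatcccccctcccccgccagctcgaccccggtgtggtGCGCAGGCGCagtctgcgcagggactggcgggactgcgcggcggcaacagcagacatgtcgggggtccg

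Other genes of the pathway gave shares of calls of the same order or below the 28.2% of all genes tested. Of 21 further subunits and electron carriers, 2 rose and 1 fell, with a median of -0.02. CYCS, cytochrome c, which carries electrons from complex III to complex IV, was at 214, 222 and 222 CPM in the control libraries and 179, 193 and 202 CPM with SOX2 siRNA. It fell by 0.19 on the log2 scale (SE 0.042, adjusted p = 0.0021, edgeR), with the groups separate. COX7A2 (0.26, adjusted p = 0.028, edgeR), a small subunit of complex IV, and ATP5PF (0.16, adjusted p = 0.015, edgeR), coupling factor 6 of the ATP synthase, rose. COX7A2 lost its call without control replicate 1 and without SOX2 siRNA replicate 2 or 3, and ATP5PF without control replicate 2 and without SOX2 siRNA replicate 2 or 3.

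Factors that assemble complex I had 3 of 18 higher and 0 lower in edgeR. At an unadjusted p under 0.05 edgeR had 1 lower, COA1, and DESeq2 and limma-voom called 0 lower. Of all genes tested 14.8% were called higher and 13.4% lower, and the median of the 18 was 0.02. NDUFAF3, an early assembly factor, was at 8.23, 7.58 and 7.53 CPM in the control libraries and 11.9, 11.6 and 11.2 CPM with SOX2 siRNA. Its groups were far apart, with a log2 fold change of 0.57 (SE 0.082, adjusted p = 4.1e-05, edgeR), more than that of any member. ACAD9, a flavoprotein needed for complex I assembly, rose by 0.22 (adjusted p = 0.0060, edgeR). Of 39 assembly factors for the other complexes, 4 rose and 3 fell, with a median of 0.04. They included COX20 (0.20) and CMC2 (0.29), both complex IV factors, among the higher ones. Lower were TTC19, a complex III factor at 68.7, 66.9 and 68.9 against 55.8, 56.9 and 55.9 CPM (-0.28, adjusted p = 5.5e-05, edgeR), and ATPAF1, which assembles the ATP synthase head (-0.17).

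Genes that copy and transcribe mitochondrial DNA had 3 of 16 called, POLG (0.14) and TFB2M (0.20) higher and TWNK (-0.19) lower in edgeR, and DESeq2 called 0. The calls of POLG, TFB2M and TWNK were each lost without 1 of several libraries, control replicate 2 among them, and those of POLG and TFB2M also with upper-quartile scaling. TFAM, which packages mitochondrial DNA and starts its transcription, was at 155, 161 and 168 CPM in the control libraries and 139, 153 and 160 CPM with SOX2 siRNA (-0.10, SE 0.049, adjusted p = 0.151, edgeR); it passed without SOX2 siRNA replicate 3 (-0.14, adjusted p = 0.035). POLRMT, the mitochondrial RNA polymerase, was at -0.05 (adjusted p = 0.596, edgeR), and at -0.16 (adjusted p = 0.0088) with GC and length offsets.

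Among 20 genes that process or stabilise mitochondrial RNA, 1 rose and 2 fell, with a median of 0.00. GRSF1, a protein of mitochondrial RNA granules that binds transcripts of the light strand, was at 177, 180 and 182 CPM in the control libraries and 152, 152 and 152 CPM with SOX2 siRNA. It fell by 0.25 (SE 0.034, adjusted p = 3.0e-05, edgeR). MTPAP, the mitochondrial poly(A) polymerase, was lower (-0.13, adjusted p = 0.041, edgeR) and ELAC2, which cuts tRNAs from the precursor, higher (0.17, adjusted p = 0.010, edgeR). MTPAP lost its call without control replicate 2 or 3, without SOX2 siRNA replicate 2 or 3, with DESeq2, with no filter beyond 1 count and with GC and length offsets, and ELAC2 without SOX2 siRNA replicate 3.

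Of 13 tested regulators of mitochondrial biogenesis, 1 rose and 3 fell. ESRRG, a nuclear receptor that activates genes of oxidative metabolism, was at 5.21, 6.06 and 4.87 CPM in the control libraries and 2.05, 1.79 and 2.01 CPM with SOX2 siRNA. It fell by 1.46 on the log2 scale (SE 0.15, adjusted p = 6.0e-07, edgeR). GABPB1, a subunit of the ETS factor complex with GABPA, was lower too (-0.21, adjusted p = 0.012, edgeR), a call lost without control replicate 2 or 3, and the third to fall was PPARGC1B, a coactivator that DESeq2 did not call. MYC was at 5.84, 5.26 and 4.04 CPM in the control libraries and 8.11, 6.24 and 8.90 CPM with SOX2 siRNA (0.61, adjusted p = 0.012, edgeR). Its adjusted p was 0.052 without control replicate 2 and 0.0501 without SOX2 siRNA replicate 1. PPARGC1A, a coactivator central to biogenesis in muscle and fat, was barely expressed, at 1.54, 1.48 and 1.45 CPM against 1.56, 1.05 and 0.869 (-0.36, adjusted p = 0.278, edgeR).

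The mitochondrial ribosome translates the 13 mRNAs, and 78 genes were listed for it by an MRPL or MRPS symbol alone. Whether each protein belongs to the ribosome was not checked. Of the 78, 3 were higher and 7 lower, with a median of 0.00. MRPS6 (68, 71.5 and 69.0 against 55.2, 56.7 and 55.9 CPM) had the smallest p and fell by 0.31 (SE 0.042, adjusted p = 2.0e-05, edgeR), and MRPL44 fell by 0.27. The higher ones included MRPL14 (0.21) and MRPS36 (0.22), whose calls were lost when 1 of several libraries was left out, control replicate 2 and SOX2 siRNA replicates 2 and 3 among them. MRPS36 was also not called by DESeq2 or limma-voom. In the tricarboxylic acid cycle with pyruvate dehydrogenase, 1 of 17 was lower and 0 higher (edgeR; 3 higher at an unadjusted p under 0.05, 0 by DESeq2 and limma-voom). That gene was DLAT, the acetyltransferase of pyruvate dehydrogenase (-0.24, SE 0.047, adjusted p = 9.7e-04, edgeR).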

How the data were processed

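The data were raw counts per gene symbol, deposited by the authors as 1 table with a column for each of the 6 libraries; the values were whole numbers with unequal totals. Per the labels' protocols, the KAPA mRNA HyperPrep kit was used on Trizol-extracted RNA. The submitters' processing notes name bcl2fastq 2.20.0, STAR 2.7.3a, Salmon 0.14.1, DESeq2 1.28.1 and GRCh38.p13; which of these made the counts, the annotation and the use of strand are not given in the sources used here.

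Genes were kept by edgeR's filterByExpr (minimum count 10), scaled by TMM and tested with edgeR's quasi-likelihood F-test (edgeR 4.0.16, R 4.3.3; robust, group as the one term), with Benjamini-Hochberg adjustment over all 17592 genes and a threshold of 0.05. The biological coefficient of variation was 4.67%. CPM and its log2 fold changes use the scaled library sizes. Coordinates, coding lengths and overlaps came from GENCODE 29, whose GRCh38 assembly is the build of the processing notes, and all 74 members matched by symbol; promoter windows came from RefSeq. Replicates of a group differed by more than counting error (chi-square per degree of freedom 2.91 to 6.42), so none was counted as a duplicate.

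The members and the lists (further subunits, isoforms of single tissues, assembly of complex I and of the others, mitochondrial DNA, RNA processing, biogenesis, mitoribosome, tricarboxylic acid cycle, hypoxia, mitochondrial RNA and pseudogenes, and cell type markers) were chosen with earlier results of these data known. Named were all mitochondrial mRNAs; per complex up to 4 called nuclear members by p, the 2 with the largest changes, and the highest and lowest per length; and up to 2 called genes per list and direction, with MT-RNR1, MT-RNR2, PPARGC1A, TFAM, POLRMT, NDUFA4L2 and COX4I2. Other genes were named after their values were seen. Alternatives were other scalings, filters and tests (DESeq2 1.42.0, limma-voom with limma 3.58.1), each library left out, a replicate block and loess offsets for GC content and length. Tested on simulated data with 200 of 17555 genes changed for this comparison, the procedure found 40% of the 1.25-fold changes, 70% of those of 1.5-fold, 78% of 2-fold changes and 100% of 4-fold ones, and 4.0% of its calls were false.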

Additional observations from a re-analysis of the deposited data

How the results depend on the processing

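Across 18 alternative fits the count of all calls stayed between 3760 and 5345, beside 4964. The 3 mitochondrial calls became 5 with no filter beyond 1 count (MT-ATP6, MT-ATP8, MT-CO2, MT-ND4L and MT-ND6) and 1 to 3 when a library was left out; the 8 nuclear calls became 5 to 10, and the cause was not tested. Leaving out libraries moved the median log2 fold change from -0.11 to -0.05 for mitochondrial and from -0.02 to 0.04 for nuclear members, and the difference of the mitochondrial share from -0.08 to -0.02. Offsets for GC content and length gave 5345 calls, 2 mitochondrial and 11 nuclear. Upper-quartile scaling moved the median of all genes to -0.02, with all 13 mitochondrial estimates below 0.

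Over 63 single genes, 1133 alternative values held 86 lost calls, 22 gained calls and 0 reversals. Of the 11 called members, 5 were called in every fit: NDUFS4, NDUFS6, NDUFB9, COX5A and ATP5F1E. The replicate numbers did not pair the libraries (correlations of same-numbered deviations 0.0581, -0.0554 and -0.0515). With the number as a replicate block edgeR made 5177 calls, with 4 mitochondrial members lower and 3 nuclear members higher and 5 lower; MT-ATP6 and TFAM were gained and TFB2M lost among the genes named. Simulated 1.25-fold changes were found in 40%, but among 17555 genes and not among the members alone. That rate therefore cannot be applied to members that did not pass. For 69 of the 74 members the interval of the change, as given above, stayed within 1.25-fold. Smaller changes in members that did not pass are not excluded. Libraries left with 2 against 3 have a less certain spread.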
